A study of Homo sapiens with 15 samples.

Results

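The genes described here are the steroid receptor genes NR3C1 (glucocorticoid receptor), NR3C2 (mineralocorticoid receptor), ESR1 and ESR2 (oestrogen receptors alpha and beta) and PGR (progesterone receptor). They were chosen by symbol. Of these 5 genes, NR3C1 and NR3C2 had a row among the 17272 genes of the expression table used, and ESR1, ESR2 and PGR, without a row under these symbols, were not analysed here. Gene expression had been measured by RNA sequencing in LNCaP, a human prostate cancer cell line that depends on androgen for growth. All cells were kept in charcoal-stripped serum, from which most steroids have been removed, for 2 days and were then treated for 22 h. In 10 libraries the cells received 1 nM R1881, a synthetic androgen, with the solvent DMSO. In the other 5 they received 1 nM R1881 with 2 µM enzalutamide, a drug that blocks androgen signalling. No glucocorticoid, mineralocorticoid, oestrogen or progestin is named as an added agent in either treatment, and there were no cells without R1881. All libraries came from a single established cell line in culture.

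Steroid receptors are transcription factors that are held inactive until they bind their hormone, after which they enter or stay in the nucleus and bind DNA as dimers. The glucocorticoid, mineralocorticoid, progesterone and androgen receptors recognise the same short DNA element, an inverted repeat of the half-site AGAACA, and several genes are induced by more than one of these hormones. The oestrogen receptors bind a different element. In prostate cancer cells the glucocorticoid receptor can take over the induction of some androgen target genes when androgen signalling is blocked, which is known as glucocorticoid receptor bypass. The comparison of enzalutamide with R1881 alone asks which of these receptors, and which of the genes known to respond to their hormones, differed between the treatments.

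NR3C1 lies at chr5:143277931-143435512 on the minus strand and NR3C2 at chr4:148078762-148444698 on the minus strand (GRCh38, GENCODE v44, with 17 and 9 annotated transcripts). NR3C1 starts transcription at several alternative first exons. The 250 bases before the outermost start and before a second, GC-rich start, and those before the outermost start of NR3C2, are printed to show the promoters of a receptor that changed and of one that did not pass the test (RefSeq starts, GRCh38.p14, written in the direction of transcription, 5′ to 3′). Capitals mark the GC box GGGCGG, a common promoter element.
NR3C1, chr5:143435513-143435762: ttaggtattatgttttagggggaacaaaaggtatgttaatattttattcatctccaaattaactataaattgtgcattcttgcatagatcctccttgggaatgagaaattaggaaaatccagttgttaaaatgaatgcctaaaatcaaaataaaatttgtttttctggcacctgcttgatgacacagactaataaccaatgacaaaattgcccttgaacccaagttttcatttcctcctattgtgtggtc
NR3C1, chr5:143405356-143405605: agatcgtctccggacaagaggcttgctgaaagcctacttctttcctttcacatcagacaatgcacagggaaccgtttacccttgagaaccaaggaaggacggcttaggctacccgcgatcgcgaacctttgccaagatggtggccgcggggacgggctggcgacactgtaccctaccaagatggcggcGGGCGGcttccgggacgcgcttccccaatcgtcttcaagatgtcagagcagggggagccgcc
NR3C2, chr4:148445323-148445572: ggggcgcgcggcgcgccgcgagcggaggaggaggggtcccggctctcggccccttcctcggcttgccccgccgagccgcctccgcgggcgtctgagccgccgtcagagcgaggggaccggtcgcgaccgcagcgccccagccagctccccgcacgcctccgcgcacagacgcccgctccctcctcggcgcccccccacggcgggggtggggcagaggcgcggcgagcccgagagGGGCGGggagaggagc

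The outermost NR3C1 window was 32.8% G and C and held 0 CpG sites, while the second held 59.6% and 20 CpG sites and the NR3C2 window 81.6% and 40 CpG sites. Over RefSeq windows of 300 bases around each start, on either strand, the GC box was found in 5 of 7 NR3C1 windows and 4 of 4 NR3C2 windows, beside 45.0% of all 35116 windows. The half-site AGAACA was found in 0 of the NR3C1 and 0 of the NR3C2 windows, beside 14.8% of all windows. These counts describe letters in the windows and not binding.

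The R1881 libraries held 15830745 to 24316740 reads on genes and the enzalutamide libraries 21188661 to 25416052. The values are given as deposited, in CPM, reads relative to the size of the library. A gene entered the limma test, on the log2(CPM + 0.5) scale, if its mean was at least 0.5 CPM, which 17046 genes met, and was called at a Benjamini-Hochberg adjusted p under 0.05. By this test 62.5% of these genes were called between the treatments, 29.8% higher and 32.7% lower with enzalutamide. The library labels number the R1881 cultures 51 to 55 and 71 to 75 and the enzalutamide cultures 81 to 85, without saying what the numbers mean, so that any effect of the last number block cannot be told apart from that of enzalutamide. R1881 replicate 6 and enzalutamide replicate 2 stood apart together, since their deviations from the mean of their treatment correlated at 0.67 across 17046 genes, where the next highest correlation of an R1881 with an enzalutamide library was 0.47. Values without these libraries are given for both receptors. All 9 luminal prostate markers had a row, and their summed level was 7782 to 9096 CPM with R1881 and 3319 to 3405 CPM with enzalutamide. Of the 9, 6 were lower and 3 higher with enzalutamide. KLK3, which encodes prostate-specific antigen, was at 1588 ± 209 CPM (SD, n = 10) and 134 ± 7.66 CPM (n = 5), and the luminal keratin gene KRT8 at 1581 ± 192 CPM and 349 ± 32.8 CPM. FOLH1, which encodes prostate-specific membrane antigen, was higher, at 740 ± 37.1 CPM and 1526 ± 69.7 CPM, and FOXA1, a lineage factor of luminal cells, was at 378 ± 15.1 CPM and 402 ± 10.3 CPM.

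NR3C1 was close to absent with R1881 and higher in each enzalutamide library. With R1881 its level ranged from 0.0599 to 0.194 CPM (median 0.134), which was 1 to 4 reads per library and 29 reads in the 10 libraries together. With enzalutamide it was 2.37, 1.53, 1.77, 2.29 and 2.08 CPM in replicates 1 to 5, from 51, 33, 39, 51 and 53 reads. The lowest enzalutamide library lay above the highest R1881 library, so that the treatments did not overlap. Among all genes tested, 17.1% were higher and 20.1% lower with enzalutamide without overlap.

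The means were 0.141 ± 0.0481 CPM (SD, n = 10) with R1881 and 2.01 ± 0.353 CPM (n = 5) with enzalutamide. Pooled over libraries, the level with enzalutamide was 14.04 times that with R1881, with a 95% exact interval of 9.51 to 21.4 that covers counting error only. On the log2(CPM + 0.5) scale, which understates the change of a gene with so few reads, the difference was 1.96 (SE 0.10, 95% interval 1.75 to 2.18, limma adjusted p = 6.87e-13). The two-sided exact permutation test gave p = 0.000333, the smallest that the regroupings of the libraries allow. The edgeR quasi-likelihood test on the recovered reads gave a log2 fold change of 3.76 (adjusted p = 4.32e-13). NR3C1 passed the filter on low values only through the enzalutamide libraries and so had to differ. With no filter, the limma adjusted p was 5.48e-13.

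The increase did not rest on the choice of R1881 libraries. Libraries 51 to 55 had a mean of 0.141 CPM and libraries 71 to 75 of 0.140 CPM. Against either block alone the log2 difference was 1.96, with an exact permutation p of 0.00794, the smallest possible with 5 libraries against 5. Without R1881 replicate 6 and enzalutamide replicate 2 it was 2.03 (limma adjusted p = 8.44e-13).

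Genes that mark other cell types were read beside NR3C1, since stromal and immune cells express it. Of 6 stromal markers 4 had a row, and 3 of these were higher with enzalutamide by the limma test, whose background share of genes higher was 29.8%. One of the 3, LUM, passed the filter on low values only through the enzalutamide libraries. Their summed level was 28.7 to 36.1 CPM with R1881 and 46.8 to 52.9 CPM with enzalutamide, most of it from VIM, the intermediate filament vimentin, at 22.9 ± 1.43 and 34.6 ± 1.66 CPM. COL1A1, a fibrillar collagen, was at 6.03 ± 1.28 and 9.96 ± 1.8 CPM, and LUM, an extracellular matrix proteoglycan, at 0.213 ± 0.0761 and 1.53 ± 0.124 CPM. ACTA2, smooth muscle actin, did not pass the test (3.58 ± 0.494 and 3.72 ± 0.300 CPM), and the defining markers DCN and COL1A2 had no row. None of 4 immune markers had a row. Of 3 basal epithelial markers only KRT14 had a row, at 1.02 ± 0.258 and 0.10 ± 0.125 CPM. The part of other cell types in the NR3C1 result was not tested. In these bulk samples more cells that contain a transcript and more transcript per cell cannot be told apart.

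An intron of NR3C1 holds RPL7P21, a processed pseudogene on the opposite strand, whose reads cannot be assigned with certainty where a near-identical copy exists. It was lower with enzalutamide, at 33.7 ± 2.41 CPM with R1881 and 28.6 ± 1.88 CPM with enzalutamide (log2 difference −0.23, limma adjusted p = 9.76e-04), opposite in direction to NR3C1.

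NR3C2 was expressed in all libraries and did not pass the test between treatments. Its level with R1881 ranged from 12.5 to 18.4 CPM (median 15.4), from 217 to 406 reads per library. With enzalutamide it was 16.8, 15.3, 16.3, 17.5 and 16.2 CPM in replicates 1 to 5. Each enzalutamide library fell within the range of the R1881 libraries.

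The mean of NR3C2 was 15.5 ± 1.84 CPM (SD, n = 10) with R1881 and 16.4 ± 0.796 CPM (n = 5) with enzalutamide. The log2 difference was 0.08 (SE 0.08, 95% interval −0.07 to 0.24, limma adjusted p = 0.349), with an exact permutation p of 0.312. The interval leaves room for a small change in either direction. Without R1881 replicate 6 and enzalutamide replicate 2 the difference was 0.07 (limma adjusted p = 0.372). Exon sequence of NR3C2 overlaps the span of a long noncoding gene on the other strand, whose own exons were not compared. Whether reads were counted by strand is not stated.

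For NR3C2 the spread among R1881 libraries was larger than the difference between treatments. Libraries 51 to 55 had a mean of 16.7 ± 1.54 CPM (n = 5) and libraries 71 to 75 of 14.3 ± 1.29 CPM (n = 5), a log2 difference of −0.22 (two-sided exact permutation p = 0.0397, smallest possible 0.00794). By limma at an adjusted p under 0.05, 3.29% of 16810 genes were called between these blocks. The permutation p of NR3C2 is not adjusted, so it does not place NR3C2 among these genes. Against libraries 51 to 55 alone the enzalutamide libraries differed by −0.02 (exact permutation p = 0.706), and against libraries 71 to 75 alone by 0.19 (exact permutation p = 0.0159). The sign and the call for NR3C2 therefore depended on the R1881 block used, unlike those for NR3C1.

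**Figure D1:**
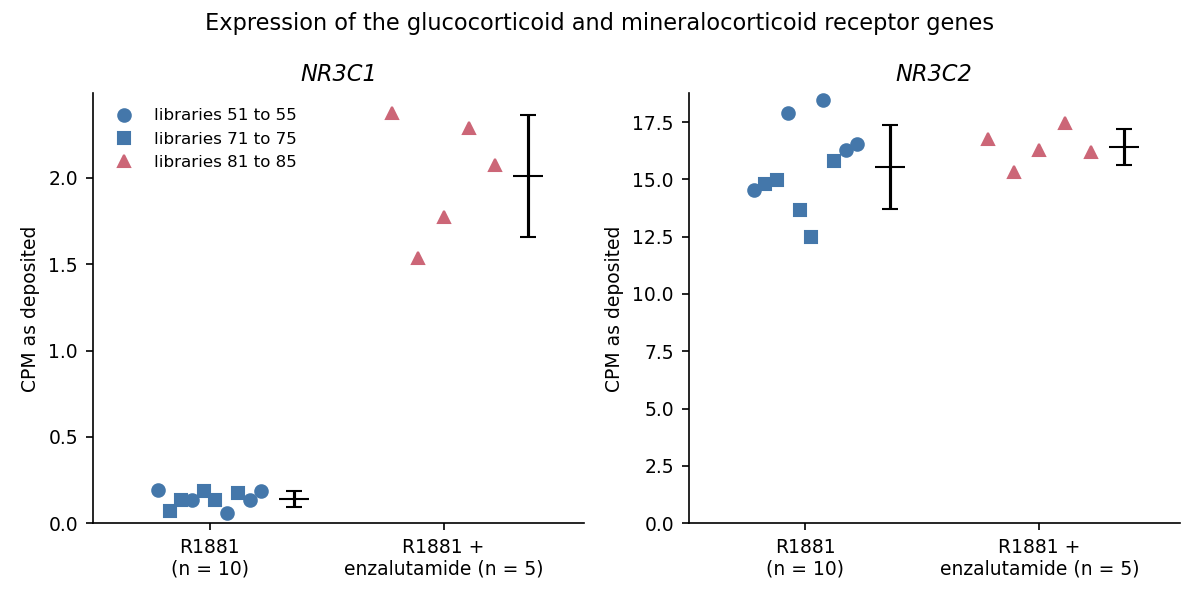
CPM of NR3C1 (left) and NR3C2 (right) in each library, on linear axes from 0, for 10 R1881 and 5 R1881 + enzalutamide libraries. Symbols give the number block of the label and the black bars the mean ± SD. All 5 enzalutamide libraries lie above all R1881 libraries for NR3C1 (at least 1.53 against at most 0.194 CPM), whereas for NR3C2 they lie between 15.3 and 17.5 CPM, inside the R1881 range of 12.5 to 18.4 CPM.

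The genes whose levels followed NR3C2 most closely over the 15 libraries, among 12163 genes with a mean of at least 5 CPM, were MID2, KLHL42 and CYLD. MID2 encodes a ubiquitin ligase, KLHL42 an adaptor of a cullin ubiquitin ligase and CYLD an enzyme that removes ubiquitin chains. Pearson's r was 0.94 for MID2, 0.91 for KLHL42 and 0.91 for CYLD, and 0.93, 0.91 and 0.90 after removal of the treatment means. These are descriptions over libraries that share differences in preparation. None of these genes passed the limma test between treatments (adjusted p = 0.271, 0.286 and 0.229). NR3C1 had too few reads for such a comparison.

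Levels of different receptors were compared per kb of exon, since longer transcripts give more reads. On the CPM per kb scale NR3C2 was at 2.35 ± 0.279 with R1881 and 2.48 ± 0.120 with enzalutamide, and was 16th in level among 30 nuclear receptor genes with a row in both treatments. NR3C1 was last of the 30 with R1881, at 0.0154 ± 0.00525 CPM per kb, and was 27th with enzalutamide, at 0.219 ± 0.0385 CPM per kb. The level of NR3C2 per kb was thus 153 times that of NR3C1 with R1881 and 11.3 times with enzalutamide.

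Neighbours in this order were often within the spread of the libraries. With R1881 the range of NR3C1 (0.00654 to 0.0211 CPM per kb) overlapped that of HNF4G, a receptor of the hepatocyte nuclear factor family, next above it (0.0131 to 0.110). With enzalutamide the NR3C1 range of 0.168 to 0.259 CPM per kb overlapped those of ESRRG above it (0.254 to 0.341) and RORA below it (0.117 to 0.187). HNF4G and RORA are named here only as neighbours in the order. With R1881 NR3C2 stood between NR2C1 (2.88 ± 0.292 CPM per kb) and NR1H3 (2.23 ± 0.333), with overlapping ranges. NR2C1 and NR1H3 too were chosen after their values were seen.

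**Figure D2:**
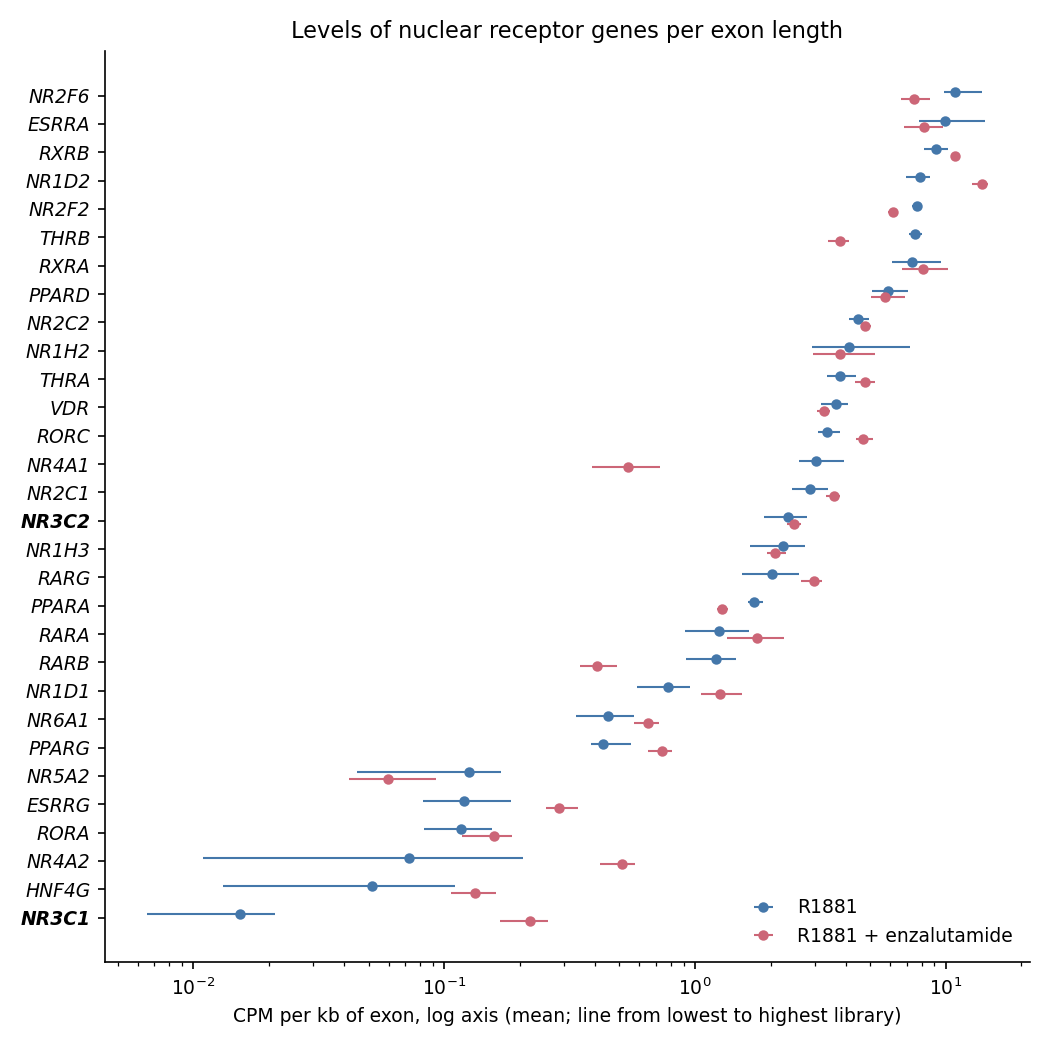
Level per kb of exon (CPM per kb, log axis) of 30 nuclear receptor genes with R1881 (blue, n = 10) and R1881 + enzalutamide (red, n = 5), ordered by the R1881 level, with the mean as a point and the lowest to highest library as a line. NR3C1 lies at the bottom with R1881 (0.0154) and moves to 0.219 with enzalutamide, while the 2 ranges of NR3C2 overlap near 2.35 and 2.48.

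The wider receptor family changed in both directions. Of 42 other nuclear receptor genes, 28 had a row and 27 passed the filter. Of these 27, 13 were higher, 9 were lower and 5 were not called, with a median log2 difference of 0.14, beside −0.01 over all genes tested. This share of called genes was read against the background of 62.5%, and 2 of the 27 passed the filter through 1 treatment only. The log2 difference of NR3C1 (1.96) was above those of the 27 others. The nearest was that of NR4A2, an orphan receptor induced as an immediate early gene, which went from 0.298 ± 0.221 to 2.11 ± 0.263 CPM (log2 difference 1.74, SE 0.16). NR4A2 too passed the filter only through the enzalutamide libraries and so had to differ. Its pooled ratio of enzalutamide to R1881 was 6.94 (95% exact counting interval 5.22 to 9.35), beside 14.04 (9.51 to 21.4) for NR3C1. The edgeR log2 fold change was 2.78 for NR4A2 and 3.76 for NR3C1. The difference between these genes was not tested.

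NR4A1, its closest relative, moved the other way, from 22.2 ± 3.48 to 3.93 ± 0.971 CPM (log2 difference −2.37, limma adjusted p = 2.54e-13). The retinoic acid receptor gene RARB fell by 1.46 on the log2 scale (11.5 ± 1.5 to 3.84 ± 0.537 CPM) and the thyroid hormone receptor gene THRB by 0.99 (82.8 ± 3.79 to 41.4 ± 2.98 CPM). ESRRG, an orphan receptor related to the oestrogen receptors, rose by 1.02 (1.31 ± 0.346 to 3.13 ± 0.415 CPM).

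The 5 receptors with the highest levels per kb of all exons with R1881 each differed by less than 1 on the log2 scale. Per kb of the longest transcript, RXRA and THRB took the place of NR1D2 and NR2F2 among the highest 5. NR2F6, an orphan receptor, was at 10.9 CPM per kb with R1881 and 7.47 with enzalutamide, a log2 difference of −0.53 (limma adjusted p = 3.31e-06). ESRRA, a regulator of mitochondrial genes, was at 9.91 and 8.16 CPM per kb, with a log2 difference of −0.27 (limma adjusted p = 0.0348) that lost its call without enzalutamide replicate 1 (−0.20, adjusted p = 0.121), 4 (−0.24, 0.0827) or 5 (−0.26, 0.0621) or R1881 replicate 5 (−0.24, 0.0547). RXRB, a partner of many receptors, was higher by 0.26 (9.16 to 10.9 CPM per kb), the circadian repressor gene NR1D2 higher by 0.82 (7.89 to 13.9 CPM per kb) and NR2F2, an orphan receptor, lower by −0.32 (7.67 to 6.13 CPM per kb), each past the limma test.

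Genes induced by glucocorticoids in other cells were mostly lower in the libraries in which NR3C1 was higher. Of 20 such genes, 16 had a row and all 16 were tested. By the limma test 12 were lower, 3 were higher and 1, the metallothionein gene MT2A, was not called (its reads can be shared with near-identical metallothionein genes), beside a background of 32.7% lower and 29.8% higher. At least a 2-fold change on the log2(CPM + 0.5) scale was found for 9 lower and 1 higher, beside 4.19% and 3.26% of all genes. Their median log2 difference was −1.44, beside −0.01 over all genes tested. Libraries of the treatments did not overlap for 10 lower and 3 higher genes, beside 20.1% and 17.1% of all genes. ANGPTL4, PDK4, TAT and PCK1 had no row and were not analysed here.

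FKBP5, a co-chaperone that lowers the hormone affinity of the glucocorticoid receptor and is induced by glucocorticoids and androgens, decreased most in this list. Its level with R1881 was 1324 to 1597 CPM (median 1516), and with enzalutamide 49.2, 43.7, 43.3, 50.1 and 47.7 CPM in replicates 1 to 5. The log2 difference was −4.99 (SE 0.05, limma adjusted p = 1.66e-25), with no overlap between the treatments.

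SGK1, a kinase that keeps sodium channels at the cell surface, ranged from 14.4 to 20.4 CPM with R1881 (median 16.7) and was 3.58, 2.47, 2.87, 2.52 and 2.98 CPM with enzalutamide. Its log2 difference was −2.38 (SE 0.08, limma adjusted p = 8.10e-16). All R1881 libraries were above all enzalutamide libraries. ERRFI1, an inhibitor of the epidermal growth factor receptor, fell from 169 ± 14.2 to 31.6 ± 1.46 CPM. ZBTB16, a zinc-finger repressor, fell from 26.0 ± 3.80 to 6.60 ± 1.05 CPM, and the clock gene PER1 from 22.1 ± 3.18 to 6.35 ± 1.6 CPM.

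The lower genes also included KLF15, a regulator of amino acid and glucose metabolism (14.95 ± 1.97 to 4.37 ± 0.422 CPM), CRISPLD2, a secreted protein gene (43.6 ± 1.77 to 15.04 ± 0.95 CPM), and NFKBIA, the inhibitor of NF-kappaB (115 ± 4.20 to 44.1 ± 0.850 CPM). FAM107A, an actin-associated protein gene, was at 2.34 ± 0.371 CPM with R1881 and at 1 to 4 reads per library with enzalutamide, 11 reads in all. Its pooled ratio of enzalutamide to R1881 was 0.0415 (95% exact counting interval 0.0206 to 0.0750), and it passed the filter on low values only through the R1881 libraries. KLF9, a Krüppel-like factor gene, was at 77.8 ± 4.62 and 70.5 ± 2.39 CPM, a log2 difference of −0.14 (limma adjusted p = 0.00810) that was not called against libraries 71 to 75 alone (−0.09, adjusted p = 0.127) or with library totals set to 1000000 (−0.05, adjusted p = 0.323).

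BIRC3, TSC22D3 and DUSP1 were the 3 genes of the list that rose. BIRC3, an inhibitor of apoptosis that is also induced by NF-kappaB, was at 2.22 to 3.52 CPM with R1881 (median 2.97) and 12.9, 10.3, 9.78, 12.6 and 9.17 CPM with enzalutamide (log2 difference 1.75, SE 0.10, limma adjusted p = 4.24e-12). TSC22D3, which encodes the glucocorticoid-induced leucine zipper, was at 31.6 to 43.6 CPM with R1881 (median 37.5) and 53.5, 55.7, 59.7, 55.3 and 55.8 CPM with enzalutamide (log2 difference 0.57, SE 0.07, limma adjusted p = 2.69e-07). DUSP1, a phosphatase of mitogen-activated protein kinases, was at 14.7 to 17.4 CPM with R1881 (median 16.5) and 20.7, 20.6, 24.4, 21.6 and 22.2 CPM with enzalutamide (log2 difference 0.41, SE 0.06, limma adjusted p = 1.51e-06). For each of the 3 genes the libraries of the treatments did not overlap.

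Of the 16 genes, 6 are also induced by androgen: FKBP5, ZBTB16, PER1, SGK1, TSC22D3 and ERRFI1. Of these 6, TSC22D3 was higher and 5 were lower, with a median log2 difference of −2.14. Because the androgen and glucocorticoid receptors share targets, and no library had a glucocorticoid added or androgen left out, the levels of these genes do not separate the action of one receptor from that of the other.

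**Figure D3:**
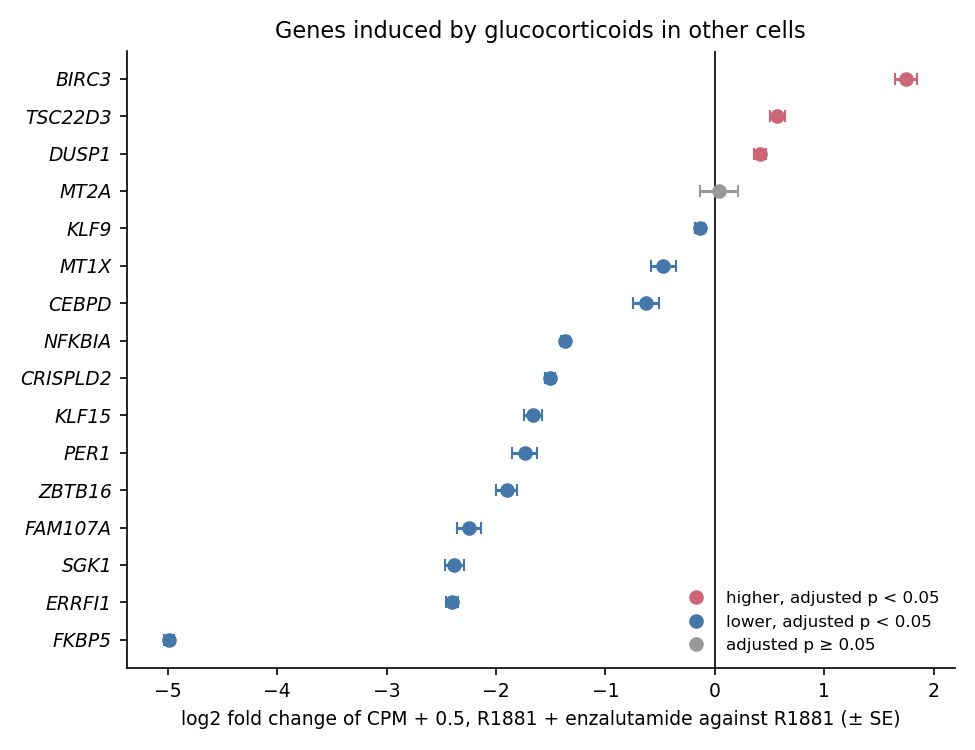
Log2 fold change (CPM + 0.5, R1881 + enzalutamide against R1881, n = 5 and 10) with its SE for 16 genes induced by glucocorticoids in other cells. Blue marks 12 genes lower, red 3 genes higher (BIRC3 1.75, TSC22D3 0.57, DUSP1 0.41) and grey MT2A, which was not called. FKBP5 lies lowest at −4.99.

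The half-site shared by these receptors was searched in the same RefSeq windows for the list. Windows were given for 16 of the 20 genes, and 4 of their 24 windows held AGAACA on either strand (16.7%), beside 14.8% of all windows. The full element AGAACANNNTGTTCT was found in 0 of the 24 and in 1 of all 35116 windows. The matches of 3 genes that fell are printed to show the letters found, with the half-site in capitals, in the direction of transcription (RefSeq starts, GRCh38.p14). The FKBP5 and SGK1 matches overlap an annotated exon at the start of the gene, and that of FAM107A lies 212 bases before its start, here written as the reverse complement TGTTCT.
FKBP5, chr6:35728566-35728595: caccactaccccAGAACAaactcctacctc
SGK1, chr6:134177839-134177868: ggggttcataacAGAACAgggatagccgtc
FAM107A, chr3:58587209-58587238: gtcaggacactgTGTTCTcgccttggccct
The share in the list was close to that in all windows, and elements outside the windows were not searched.

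Genes of aldosterone-regulated sodium transport, read beside NR3C2, moved in both directions. Of 7 genes 5 had a row and 4 were tested, of which 2 were higher and 2 lower, with a median log2 difference of −0.27, beside 29.8% higher and 32.7% lower among all genes. SGK1, already given, belongs to this list too. ATP1B1, SCNN1A, NEDD4L and SCNN1G are named after their values were seen. ATP1B1, a regulatory subunit of ion pumps, was higher by 0.90 (363 ± 17.9 to 678 ± 27.2 CPM), without overlap between the treatments. SCNN1A, the alpha subunit of the epithelial sodium channel, was higher by 0.21 (106 ± 3.86 to 123 ± 10.4 CPM), while NEDD4L, a ligase that removes the channel from the surface, was lower by −0.75. SCNN1G, the gamma subunit, was below the filter, at 0.101 ± 0.0687 and 0.802 ± 0.182 CPM, from 21 reads in 10 and 91 reads in 5 libraries. With no filter it was higher by 1.11 (limma adjusted p = 3.22e-08), without overlap between the treatments, which gave 3 higher and 2 lower genes in the list.

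ESR1, at chr6:151656691-152129619, ESR2, at chr14:64084232-64338112, and PGR, at chr11:101029624-101129813 (GRCh38), had no values here, and only genes known to respond to their hormones could be read. Of 18 oestrogen-induced genes, 11 had a row and were tested, and 5 were higher, 3 lower and 3 not called, with a median log2 difference of 0.02. The share called was near the 62.5% of all genes. GREB1, a cofactor of the oestrogen receptor that is also induced by androgen, was at 120 to 130 CPM with R1881 (median 125) and 22.0, 24.7, 22.8, 25.1 and 23.6 CPM with enzalutamide (log2 difference −2.38, SE 0.04, limma adjusted p = 5.10e-22). MYB, a transcription factor, was at 0.629 to 1.63 CPM with R1881 (median 1.25) and 6.47, 4.84, 5.69, 5.17 and 4.35 CPM with enzalutamide (log2 difference 1.78, SE 0.13, limma adjusted p = 1.01e-10). These genes changed in opposite directions, in each case without overlap of the libraries.

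Of 6 progesterone-induced genes, 3 had a row. WNT4, a secreted ligand of the mammary gland, was higher (0.884 ± 0.204 to 1.69 ± 0.444 CPM, log2 difference 0.66, limma adjusted p = 1.27e-04). FOXO1, a transcription factor of the endometrium, was lower (12.2 ± 1.18 to 7.71 ± 0.272 CPM, log2 difference −0.63, limma adjusted p = 7.79e-08). STAT5A, a signal transducer, was not called, at 5.06 ± 0.637 and 5.06 ± 0.820 CPM.

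Among 9 genes of enzymes that make or inactivate ligands of these receptors, 5 had a row, and 2 were higher, 1 lower and 2 not called, a share called near the background of 62.5%. HSD11B2, which inactivates cortisol, was at 15.1 ± 2.84 CPM with R1881 and 19.6 ± 2.50 CPM with enzalutamide, with overlapping libraries. Its log2 difference was 0.37 (SE 0.11, limma adjusted p = 0.00556) and was not called against libraries 71 to 75 alone (0.29, adjusted p = 0.0629). HSD11B1, which regenerates cortisol, had no row and was not analysed here. AKR1C1, which inactivates progesterone, rose from 1.55 ± 0.392 to 4.19 ± 0.292 CPM (log2 difference 1.21, limma adjusted p = 2.86e-08), and remains uncertain because near-identical genes of its family can share its reads. The lower gene, steroid sulphatase STS, was at 36.7 ± 1.90 and 20.8 ± 1.62 CPM and is named after its value was seen.

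Of 7 membrane receptors of steroids, 5 had a row, and 3 were higher, 1 lower and 1 not called, beside 29.8% higher and 32.7% lower among all genes. PAQR8, a membrane progestin receptor, rose from 1.68 ± 0.298 to 3.11 ± 0.223 CPM (log2 difference 0.74, limma adjusted p = 3.00e-06), and its relative PAQR6 fell from 3.99 ± 0.391 to 2.28 ± 0.405 CPM (log2 difference −0.70, limma adjusted p = 1.63e-06). PGRMC2, a haem-binding membrane protein, was at 101 ± 4.47 and 124 ± 7.29 CPM (log2 difference 0.30, limma adjusted p = 1.63e-06). No membrane receptor gene changed at least 2-fold on the log2(CPM + 0.5) scale.

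**Figure D4:**
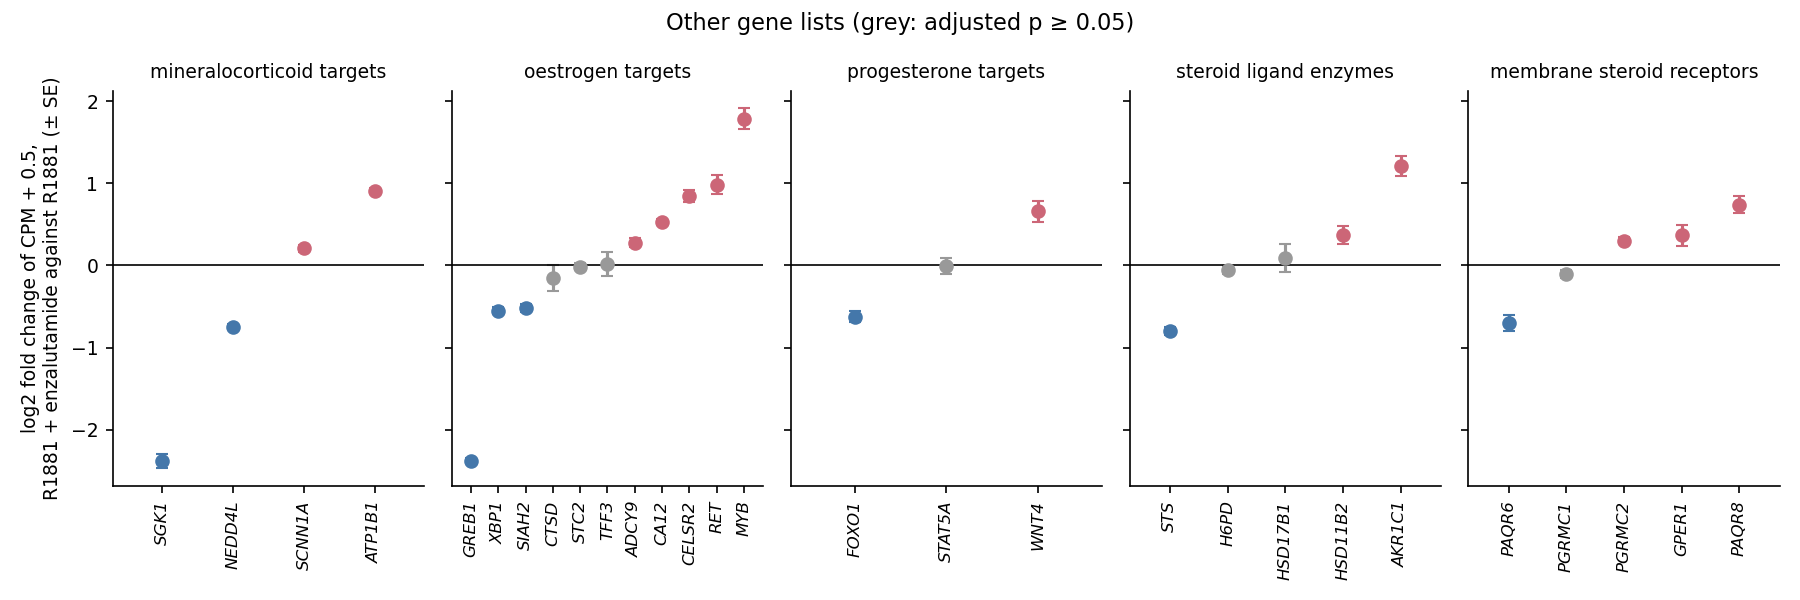
Log2 fold change (CPM + 0.5, R1881 + enzalutamide against R1881, n = 5 and 10) with its SE for the tested genes of 5 lists, one panel a list. Red points are higher, blue points lower and grey points not called. Each panel holds points on both sides of 0, from −2.38 for SGK1 and GREB1 to 1.78 for MYB.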

How the data were processed

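RNA sequencing of 15 LNCaP libraries was grouped by the sample labels. The methods text swaps the replicate numbers of the treatments. STAR (to GRCh38) and featureCounts had been run by the authors on single-end 50-base reads. The mRNA kit kept the strand. Nothing in the sources used here states the versions of STAR and featureCounts, the annotation, the use of strand in counting or how library sizes were scaled. The deposited values are a normalized signal called CPM in the methods. Column sums ran from 1053406 to 1078567 with R1881 and from 985580 to 1008992 with enzalutamide. The scaling was therefore not by plain totals, and the sums differed between the treatments without overlap. The median log2 difference over all genes tested was −0.01 as deposited and 0.08 with library totals set to 1000000, so small differences depend on the scaling. The test had been designed for CPM and was kept. All values (100%) were whole multiples of 1 read (tolerance 0.01 reads), and recovered totals gave the depth.

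Differences were tested with limma 3.58.1 (trend, log2(CPM + 0.5), mean of at least 0.5 CPM, Benjamini-Hochberg over 17046 genes) in R 4.3.3, with edgeR 4.0.16 and DESeq2 1.42.0 on recovered reads as alternatives. Single values were tested with two-sided exact permutation tests (scipy 1.17.1). On simulated reads for this comparison, limma called 191 of 200 genes changed 2-fold and 9 unchanged genes among 17008, and edgeR called 191 and 6 among 17046. These reads had the same dispersion for every gene, no differences shared by libraries or number blocks, and far fewer changed genes than were called here. They therefore do not show how often unchanged genes were called in the real libraries. Of 55 same-treatment library pairs, all differed by more than sampling noise (lowest chi-square over its degrees of freedom, 1.62).

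The genes and lists, written from general knowledge, were chosen with earlier results of these data known. Named are the 5 receptors and, from each list, genes called with a log2 fold change of at least 1, or otherwise the 3 with the lowest adjusted p. Also named are 9 preset genes (FKBP5, TSC22D3, PER1, ZBTB16, KLF9, SGK1, DUSP1, HSD11B1 and HSD11B2), the 5 nuclear receptors highest per kb, the 5 most changed, and the 3 genes most like a receptor with a median of at least 100 reads. Stated exceptions and cell type markers were named after their values were seen. A gene of the mineralocorticoid list is not reported here and was left out of its counts. Alternatives covered the pseudocount, the filter, scaling, tool, transcript length, fold threshold, R1881 blocks, a replicate block and each library left out.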

Additional observations from a re-analysis of the deposited data

Results flagged for a closer look

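In 6 of 72 groups of values examined, 1 library lay further from the rest of its treatment than the 95% critical value of Dixon's test, where chance alone would give about 3.6. None of these values was of NR3C1 or NR3C2. Among glucocorticoid-induced genes, ERRFI1 was at 29.1 CPM in enzalutamide replicate 3, beside 31.9 to 32.6 CPM in the other 4, and PER1 was at 9.16 CPM in enzalutamide replicate 2, beside 5.21 to 6.04 CPM. Among progesterone-induced genes, WNT4 was at 2.47 CPM in enzalutamide replicate 4, beside 1.44 to 1.65 CPM, and STAT5A at 6.62 CPM in R1881 replicate 6, beside 4.40 to 5.42 CPM in the other 9. The membrane receptor gene PAQR8 was at 1.0803 CPM in R1881 replicate 6, beside 1.497 to 2.02 CPM. Enzalutamide replicate 5 had 25416052 reads on genes, beside 21188661 to 22329140 in the other 4.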

How the results depend on the processing

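For NR3C1 the log2 difference kept its direction and call in every alternative run, from 1.39 (a pseudocount of 1) to 3.81 (DESeq2), with adjusted p from 1.67e-30 to 1.01e-08, and was 1.91 to 2.03 with each library left out. For NR3C2 it was −0.0246 against libraries 51 to 55 alone (adjusted p = 0.775), 0.19 against 71 to 75 alone (0.0297), 0.17 with library totals set to 1000000 (0.0447) and 0.05 to 0.11 with each library left out. Its adjusted p ranged from 0.0297 to 0.775. STAT5A changed sign: 0.0286 against libraries 51 to 55, 0.0084 with TMM factors, 0.08 with totals set to 1000000, 0.0039 with median-ratio factors, 0.0131 with the replicate block and 0.0002 without the 2 libraries that stood apart, an alternative added after the data were seen. Without those 2 libraries 10825 genes were called, 15 of the glucocorticoid list among them. For STAT5A it was −0.0676 to 0.0573 with each library left out.

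With a log2 fold change of at least 1 required, genes called went from 10660 to 1270, and the lists kept 0 membrane receptors, 1 mineralocorticoid, 2 oestrogen and 0 progesterone genes, 4 other nuclear receptors and 1 ligand enzyme. Leaving out each library gave 10071 to 10877 genes called. Per kb of the longest transcript, the levels with enzalutamide were 0.276 for NR3C1 and 2.78 for NR3C2, and NR3C2 was 18th with R1881 and 17th with enzalutamide. ESRRA lost its call in 3 further settings (against libraries 51 to 55, TMM factors, totals set to 1000000).

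Same-numbered libraries of the treatments did not deviate together (correlations −0.07 to 0.07, own number best in 0 of 5). A replicate block gave 10043 genes called, 1.96 for NR3C1 and 0.11 for NR3C2, changed no call of the 2 receptors, and left the list counts as they were except 21 in place of 22 other nuclear receptors called. Counting error limits NR3C1 with R1881, at 1 to 4 reads per library. The methods call the libraries biological replicates without saying whether cultures were separate, so p-values may measure technical spread.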
